A study of Mus musculus with 44 samples.

Results

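Tissue inhibitors of metalloproteinases (TIMPs) and the plasminogen activators with their receptor and an inhibitor were followed as messenger RNA in mouse back skin. The 8 genes are Timp1, Timp2, Timp3 and Timp4, the activators Plau and Plat, the receptor Plaur and the inhibitor Serpine2. They were chosen by name, as the TIMP family and part of the plasminogen system, and make up 8 of the 43411 genes in the deposited table and 8 of the 17037 genes that were tested.

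RNA-seq was performed on skin of 44 female WT C57Bl/6 mice, all 8 weeks old at the start of dosing. Saline was given to 10 mice, and 10 mice each received bleomycin for 2 weeks or for 4 weeks. A further 6 mice were left untreated for 6 weeks, and 8 mice for 10 weeks, after a bleomycin course of 4 weeks. Bleomycin, a DNA-damaging antibiotic used to provoke skin fibrosis, was injected under the back skin every day as 100 µL at 1 U/mL by the labels. A figure legend of the study gives a lower concentration, so the dose is uncertain. The day on which saline mice were sampled is not given in the sources used here, so the age of the recovery mice and the recovery itself cannot be told apart.

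TIMPs bind the catalytic site of matrix metalloproteinases and of related membrane proteases, and so limit the breakdown of collagen and other matrix. Plau (urokinase) and Plat (tissue plasminogen activator) cut plasminogen into plasmin, a protease that dissolves fibrin and can activate some metalloproteinases. Plaur holds urokinase at the cell surface, and Serpine2 (protease nexin-1) blocks thrombin, plasmin and both activators.

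Values are normalized counts, that is reads on a gene divided by a size factor for each mouse, and differences are log2 fold changes of log2(normalized count + 1) from limma. A gene was called when its fold change exceeded 1.5 (0.585 on the log2 scale) and its p-value, adjusted by Benjamini-Hochberg over all 17037 genes, was below 0.05. Between 8509094 and 15285577 reads fell on genes in a mouse, with a median of 11310008. Mouse 1 of the saline group and mouse 2 of the 2-week bleomycin group had the lowest median correlations with their own group (0.942 and 0.938). They are the mice said below to have stood apart, and counts without them are given where they differ. The next lowest were close, at 0.947 (mouse 4 at 10 weeks of recovery) and 0.949 (saline mouse 6). Keratinocyte markers were read in every mouse, with a summed level of 113493 to 245169 normalized counts. In whole skin, fewer cells of a type and less RNA per cell cannot be told apart.

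Bleomycin for 2 weeks was followed by higher Timp1, Serpine2 and Plaur and by lower Timp2, Timp4 and Plat. These were 6 of the 8 genes, 3 in each direction, where 16.7% of all genes were called, 9.3% higher and 7.43% lower. After 4 weeks the same 3 genes stood higher and Timp4 lower, which made 4 of 8 beside 17.9% of all genes, 10.5% higher and 7.37% lower. In the recovery groups only Serpine2 was called against saline, and it was higher in both. This was 1 of 8 at 6 weeks beside 5.04% of all genes (3.33% higher), and 1 of 8 at 10 weeks beside 3.05% (2.05% higher). An adjusted p below 0.05, whatever the fold, was reached by 8 of 8 genes at 2 weeks of bleomycin beside 35.6% of all genes, by 5 at 4 weeks beside 36.6%, by 2 at 6 weeks of recovery beside 9.08% and by 2 at 10 weeks beside 5.83%. Without both mice that stood apart, Plat was no longer called at 2 weeks (5 of 8 genes, beside 2658 of all 17043 genes tested in those mice). Timp1 was then called at 6 weeks of recovery (2 of 8 genes, beside 778 of 17043).

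**Figure D1:**
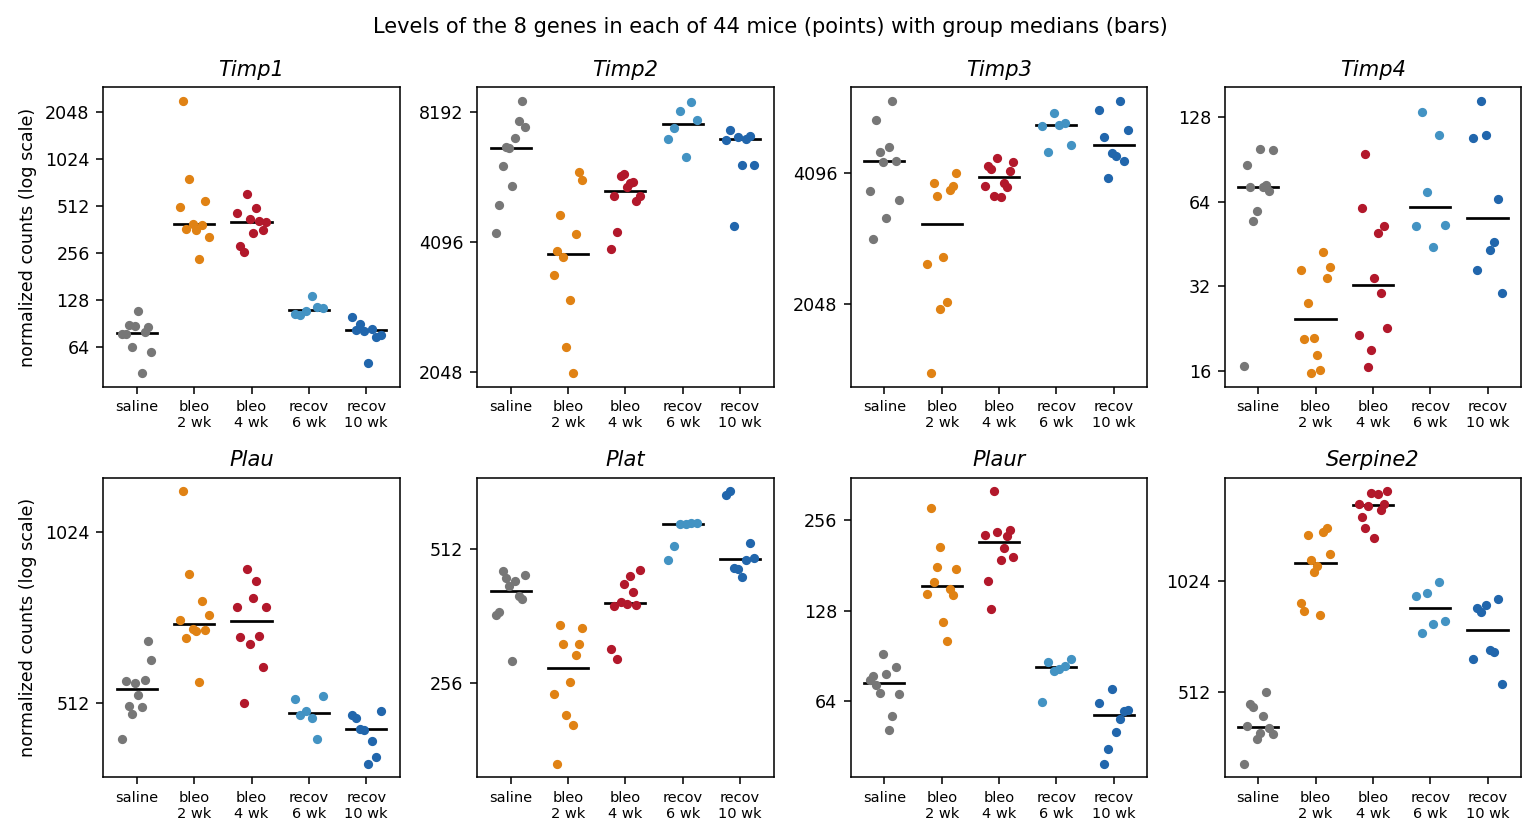
Normalized counts of each of the 8 genes (y axis, log scale) in the 44 mice, 1 point per mouse, by group (x axis), with the group median as a bar. Timp1, Plaur and Serpine2 have all points of both bleomycin groups above the highest saline point, and Serpine2 keeps this in both recovery groups.

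**Figure D2:**
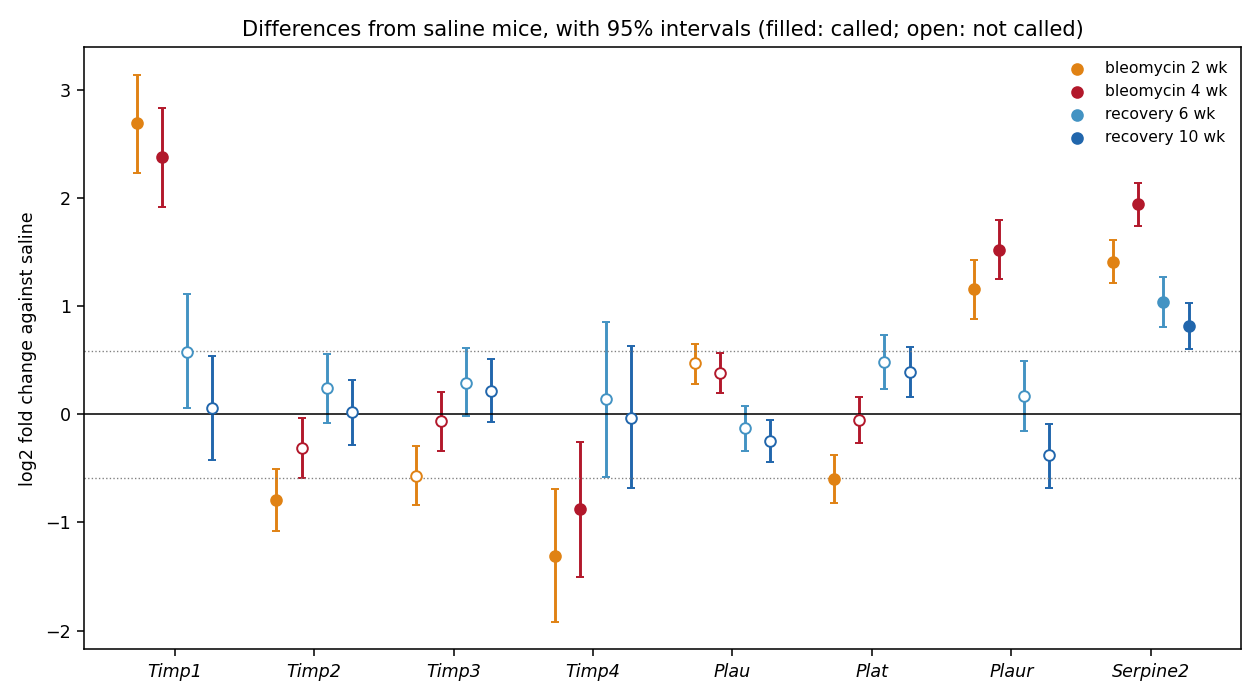
Log2 fold change against saline (y axis) of each gene (x axis) in the 4 other groups, with 95% intervals. Filled points were called, open points were not, and dotted lines mark the fold threshold of 0.585. Timp2, Timp4 and Plat lie below the lower line at 2 weeks of bleomycin, and Serpine2 lies above the upper line in all 4 groups.

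The promoters of the 3 genes that rose in both bleomycin groups are shown because these genes were called higher in both. Their direction against saline is shared, whereas within groups Serpine2 did not follow Timp1 or Plaur (r = -0.09 and -0.10). Each sequence runs 5′ to 3′ over the 250 bases before and 50 after the RefSeq transcript start of GRCm38.p6, and capitals mark every match, on either strand, to the letters of 5 motifs searched. Timp1 is read at chrX:20869916-20870215 on the plus strand, Plaur at chr7:24462233-24462532 on the plus strand and Serpine2 at chr1:79858616-79858915 on the minus strand.
Timp1: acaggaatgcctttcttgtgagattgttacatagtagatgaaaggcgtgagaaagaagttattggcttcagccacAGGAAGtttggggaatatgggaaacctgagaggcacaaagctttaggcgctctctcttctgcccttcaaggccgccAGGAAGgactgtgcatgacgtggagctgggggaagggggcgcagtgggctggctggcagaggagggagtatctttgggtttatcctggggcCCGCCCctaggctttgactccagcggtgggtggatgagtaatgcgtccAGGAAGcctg
Plaur: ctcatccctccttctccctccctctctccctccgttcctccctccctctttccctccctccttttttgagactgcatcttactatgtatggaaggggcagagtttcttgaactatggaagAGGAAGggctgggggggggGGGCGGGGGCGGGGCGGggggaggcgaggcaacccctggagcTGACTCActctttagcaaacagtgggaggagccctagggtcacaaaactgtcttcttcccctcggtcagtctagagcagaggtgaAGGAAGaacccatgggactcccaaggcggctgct
Serpine2: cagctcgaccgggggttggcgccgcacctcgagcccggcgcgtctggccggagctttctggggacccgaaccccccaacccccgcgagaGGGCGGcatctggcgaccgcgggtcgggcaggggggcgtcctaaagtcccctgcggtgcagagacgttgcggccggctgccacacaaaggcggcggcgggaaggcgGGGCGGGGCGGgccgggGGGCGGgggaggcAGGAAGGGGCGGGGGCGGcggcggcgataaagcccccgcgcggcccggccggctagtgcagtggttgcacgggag

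The motifs were the AP-1 site TGANTCA, the GC box GGGCGG, the PEA3 site AGGAAG, the STAT site TTCNNNGAA and the TATA box TATAAA. Of 32851 promoters of the same length, 7.8% held the AP-1 letters, 35.7% the GC box, 35.4% PEA3, 8.3% STAT and 13.6% the TATA box. Plaur held the AP-1 letters as TGACTCA at position -69, 3 GC boxes and 2 PEA3 matches. Timp1 held 1 GC box and 3 PEA3 matches, and Serpine2 held 6 GC boxes and 1 PEA3 match. Neighbouring GC boxes share a base in Serpine2 and in Plaur. GC content was 55.0% for Timp1, 59.3% for Plaur and 77.7% for Serpine2, with a median of 52.7% over all promoters. A match is a description of letters, and binding was not measured.

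Timp1 is the inducible TIMP, which also acts as a growth and survival signal. The gene (ENSMUSG00000001131.9) spans chrX:20870166-20874735 on the plus strand of GRCm38, inside Syn1 on the opposite strand. Saline mice ranged from 43.8 to 109.1 normalized counts of Timp1, with a median of 78.9. Bleomycin for 2 weeks gave 235.0 to 2429, median 393.5, and 4 weeks gave 261.0 to 616.3, median 408.3. All 10 mice of each bleomycin group exceeded every saline mouse. Timp1 rose by 2.69 ± 0.23 (SE) on the log2 scale at 2 weeks, a 6.45-fold difference (limma, adjusted p = 3.78e-13). At 4 weeks it rose by 2.38 ± 0.23, or 5.20-fold (adjusted p = 1.42e-11). Between the lengths of dosing the difference was -0.31 ± 0.23 (adjusted p = 0.460).

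The 2-week group held the widest spread of Timp1, with an SD of 647.9 on a mean of 633.2 normalized counts (n = 10). Mouse 2, at 2429, was the highest of all 44 mice, and the next highest of its group was at 761.9. Without both mice that stood apart, the 2-week log2 fold change was 2.44 (adjusted p = 1.33e-15). After 6 weeks of recovery Timp1 was 103.4 to 135.7, median 111.6, and 4 of the 6 mice exceeded the highest saline mouse. The log2 fold change against saline was 0.58 ± 0.26 (adjusted p = 0.151), and it was 0.59 without those 2 mice (adjusted p = 0.0362), which was called. At 10 weeks the range was 50.7 to 100.3, median 82.3, wholly inside that of saline (log2 fold change 0.06 ± 0.24, adjusted p = 0.940).

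Timp2, which also takes part in the activation of Mmp2 at the cell surface, was the most abundant of the 8 genes per length. The gene (ENSMUSG00000017466.7) lies at chr11:118301069-118355740 on the minus strand and spans Cep295nl on the same strand, with 0 exonic bases shared. Cep295nl had 11.3 to 34.3 normalized counts in any mouse. Saline mice had 4289 to 8686 normalized counts of Timp2, median 6767. At 2 weeks of bleomycin the range was 2035 to 5935, median 3837, and 7 of the 10 mice lay below the lowest saline mouse. Timp2 fell by 0.79 ± 0.14 on the log2 scale, 1.73-fold (limma, adjusted p = 1.26e-05). At 4 weeks the mice ranged from 3934 to 5883, median 5358, all below the saline median, and the difference from saline was -0.31 ± 0.14 (adjusted p = 0.0771). The recovery mice overlapped saline, at 6454 to 8646 (median 7683) after 6 weeks and 4460 to 7420 (median 7076) after 10 weeks. Their log2 fold changes were 0.24 ± 0.16 (adjusted p = 0.370) and 0.02 ± 0.15 (adjusted p = 0.969).

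Timp3 binds to the matrix and inhibits the sheddase Adam17 as well as metalloproteinases. The gene (ENSMUSG00000020044.11) lies at chr10:86300372-86349506 on the plus strand, within Syn3, which shares 1733 exonic bases with it on the opposite strand. Saline mice had 2879 to 5966 normalized counts of Timp3, median 4350, and mice at 2 weeks of bleomycin had 1420 to 4096, median 3120. Although 5 of the 10 bleomycin mice lay below every saline mouse, the log2 fold change of -0.57 ± 0.14 (limma, adjusted p = 0.000939) did not reach the fold threshold. Values at 4 weeks ran from 3607 to 4419, median 4001, inside the saline range (-0.06 ± 0.14, adjusted p = 0.754). The 6-week recovery mice had 4563 to 5599, median 5260, and the 10-week recovery mice 3987 to 5984, median 4743. Neither recovery group was called for Timp3, with log2 fold changes of 0.29 ± 0.16 (adjusted p = 0.243) and 0.22 ± 0.14 (adjusted p = 0.456). Syn3 had 1.07 to 16.0 normalized counts in any mouse, against 1420 or more for Timp3.

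Timp4 was the scarcest of the 8 genes, with 14 to 168 reads in a mouse. The gene (ENSMUSG00000030317.6) lies at chr6:115241892-115252205 on the minus strand, within Syn2 and Gm17482 on the opposite strand, and shares 90 exonic bases with Syn2. Syn2 medians were 27.6 normalized counts in saline mice, 31.1 and 47.3 at 2 and 4 weeks of bleomycin, and 35.7 and 29.2 in recovery. In both bleomycin groups these lay above the medians of Timp4 given below. Saline mice had 16.7 to 98.2 normalized counts of Timp4, median 72.2, and the lowest value was that of mouse 1, with the next at 54.7. Bleomycin for 2 weeks gave 15.7 to 42.5, median 24.4, and 4 weeks gave 16.5 to 94.8, median 32.2. Timp4 fell by 1.31 ± 0.31 on the log2 scale at 2 weeks, 2.47-fold (limma, adjusted p = 0.000688), with all 10 mice below the saline median. At 4 weeks it fell by 0.88 ± 0.31, 1.84-fold (adjusted p = 0.0211), with 9 of 10 mice below the saline median. Without both mice that stood apart the log2 fold changes were -1.48 (adjusted p = 9.05e-05) and -1.09 (adjusted p = 0.00230). Recovery mice spread over 44.2 to 133.8 (median 61.0) at 6 weeks and 30.3 to 146.3 (median 55.8) at 10 weeks, with log2 fold changes of 0.14 ± 0.35 (adjusted p = 0.859) and -0.03 ± 0.32 (adjusted p = 0.982).

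Fat cell markers and growing hair follicle markers moved in the same comparisons as Timp4. Of 5 fat cell markers, 2 fell at 2 weeks and 3 at 4 weeks of bleomycin, beside 7.43% and 7.37% of all genes. At 6 weeks of recovery 3 were higher than after 4 weeks of bleomycin, beside 4.8% of all genes. Their summed level was 9176 to 13506 normalized counts in saline mice, 5952 to 13031 at 2 weeks, 5925 to 9399 at 4 weeks, 10116 to 14535 at 6 weeks of recovery and 11553 to 21652 at 10 weeks. No fat cell marker was at 0 in any mouse. Fibroblast markers, of which 3 of 5 fell at 2 weeks, summed to 74036 to 160850 in saline mice and 37580 to 117519 at 2 weeks, beside the fall of Timp2. In each other group 1 of the 5 fell. The fibroblast sum was 65252 to 162978 at 4 weeks, 97193 to 163235 at 6 weeks of recovery and 56418 to 94242 at 10 weeks. Its median was 70612 at 2 weeks of bleomycin and 67842 at 10 weeks of recovery. Growing hair follicle markers fell in both bleomycin groups (5 of 5 each), from 1604 to 162080 in saline mice to 127.7 to 1482 at 2 weeks and 152.7 to 3665 at 4 weeks. Of these 5, 4 were higher at 6 weeks of recovery than after 4 weeks of bleomycin. The follicle sum was 197.9 to 71011 at 6 weeks of recovery and 1111 to 112090 at 10 weeks. The part of these markers in the results for Timp2, Timp4 and Plat was not tested.

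The makeup of the TIMP family was compared per length. Normalized counts per kilobase of exon, summed over the 4 genes, had a median of 2378 in saline mice, 2054 and 2289 at 2 and 4 weeks of bleomycin, and 2681 and 2492 at 6 and 10 weeks of recovery. Timp1 made up 2.00% to 6.29% of this sum in saline mice, with a median of 3.77%. Its share was 15.8% to 69.9% at 2 weeks (median 26.2%) and 14.7% to 26.4% at 4 weeks (median 19.1%), so neither bleomycin group overlapped saline. At 6 weeks of recovery the Timp1 share was 4.21% to 6.20% and at 10 weeks 2.60% to 5.79%, both within the saline range. Timp2 held a median of 73.0% in saline mice, 50.7% and 58.2% at 2 and 4 weeks of bleomycin, and 72.7% and 70.4% in the recovery groups. Timp3 stayed between medians of 20.5% and 25.8%, and Timp4 was at most 1.41% in any mouse. Shares within a sum are bound to each other, and no test was made on them.

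**Figure D3:**
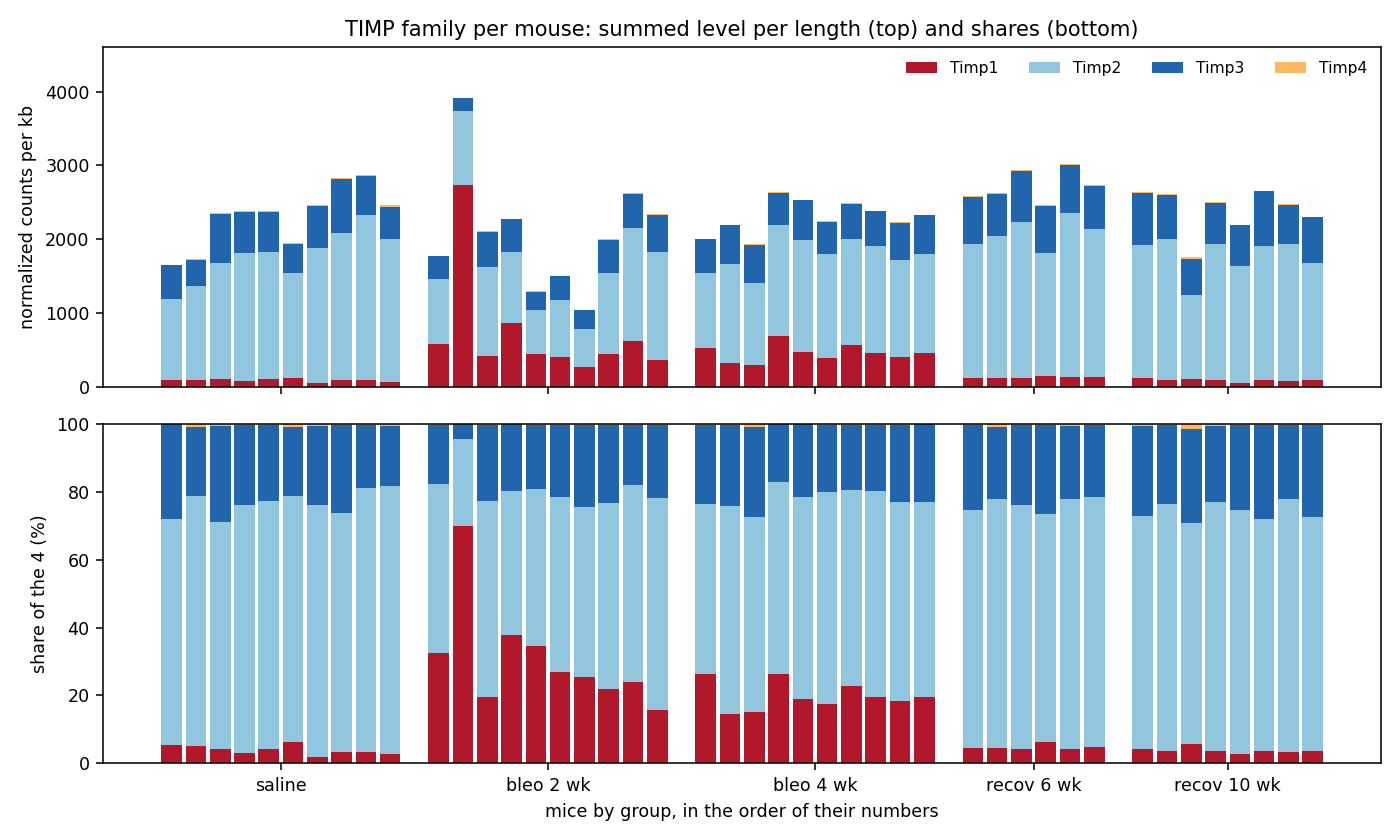
Timp1 to Timp4 in each mouse as stacked bars, by group: normalized counts per kilobase of exon (top, y axis from 0) and the share of their sum in percent (bottom). The Timp1 share is at least 14.7% in every bleomycin mouse and at most 6.29% in every other mouse. Mouse 2 at 2 weeks of bleomycin has the highest share, 69.9%.

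The order of the 8 genes per length was taken over all 44 mice. Timp2 had a median of 1501 normalized counts per kilobase, Timp3 517.9, Plau 235.6, Timp1 129.7, Serpine2 106.9, Plat 66.8, Plaur 33.5 and Timp4 8.12. In saline mice Timp2, Timp3, Plau and Timp1 occupied separate ranges, in that order. The saline ranges of Timp1 (49.3 to 122.9), Plat (45.8 to 73.5) and Serpine2 (39.4 to 61.7) overlapped, and the differences between these neighbours within mice were not tested. This pooled order mixes groups that differ, and the order of group medians departed from it. In saline mice Plat, at 66.2, stood above Serpine2, at 49.4. Timp1 stood above Timp3 at 2 weeks of bleomycin (443.2 against 383.1) and above Plau in both bleomycin groups (297.5 for Plau at 2 weeks, and 459.8 against 301.7 at 4 weeks). Plaur stood above Plat at 2 weeks (59.4 against 44.3) and at 4 weeks (83.1 against 62.1). The ranges of each of these pairs overlapped in the group named.

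Plau, urokinase, was higher in bleomycin mice by less than the fold threshold. The gene (ENSMUSG00000021822.2) lies at chr14:20836660-20843385 on the plus strand. Saline mice had 441.2 to 659.0 normalized counts of Plau, median 541.1. At 2 weeks the range was 557.2 to 1210, median 704.1, and 9 of 10 mice exceeded the highest saline mouse. At 4 weeks it was 510.3 to 882.7, median 714.1, with 7 of 10 above. The log2 fold changes of Plau were 0.47 ± 0.09 (limma, adjusted p = 6.48e-05) and 0.38 ± 0.09 (adjusted p = 0.000750), both past the p threshold and neither called. In recovery Plau ranged from 441.8 to 526.4 at 6 weeks, median 490.7, and from 399.2 to 493.8 at 10 weeks, median 459.2. Each recovery mouse lay below the saline median, with log2 fold changes of -0.13 ± 0.11 (adjusted p = 0.467) and -0.25 ± 0.10 (adjusted p = 0.120).

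Plat, the activator best known for clot lysis in vessels, was lower at 2 weeks of bleomycin. The gene (ENSMUSG00000031538.5) lies at chr8:22757727-22782844 on the plus strand. Saline mice had 286.1 to 458.5 normalized counts of Plat, median 412.9, and mice at 2 weeks of bleomycin had 167.8 to 345.5, median 276.3. Plat fell by 0.60 ± 0.11 on the log2 scale, 1.52-fold (limma, adjusted p = 1.91e-05). This lay just past the fold threshold, and edgeR, DESeq2 and scaling by TMM factors gave -0.56, -0.58 and -0.58, which were not called. Leaving out any of 6 mice (saline 3, 4 or 10, or 2-week 2, 5 or 7) also brought it under the threshold, with -0.53 to -0.58. At 4 weeks Plat ranged from 289.4 to 460.5, median 387.7, overlapping saline (-0.05 ± 0.11, adjusted p = 0.732).

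The recovery groups had the highest Plat. At 6 weeks it was 483.8 to 587.0, median 585.4, and all 6 mice exceeded every saline mouse. At 10 weeks it was 444.3 to 692.6, median 487.4, and 7 of 8 mice exceeded every saline mouse. The log2 fold changes were 0.48 ± 0.13 (limma, adjusted p = 0.0109) and 0.39 ± 0.11 (adjusted p = 0.0336), past the p threshold and under the fold threshold. Of the summed level of both activators per kilobase, Plat made up a median of 22.1% in saline mice, 12.4% and 17.8% at 2 and 4 weeks of bleomycin, and 30.4% and 29.6% at 6 and 10 weeks of recovery. The Plat share in recovery mice, 26.1% to 35.3%, lay above that of every saline mouse, 17.0% to 25.6%.

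Plaur, the urokinase receptor, is found on activated myeloid cells. The gene (ENSMUSG00000046223.9) lies at chr7:24462484-24475968 on the plus strand. Saline mice had 51.5 to 91.7 normalized counts of Plaur, median 73.7. Bleomycin mice had 102.0 to 280.9 at 2 weeks, median 155.4, and 130.0 to 319.6 at 4 weeks, median 217.4, all above every saline mouse. Plaur rose by 1.16 ± 0.14 on the log2 scale, 2.23-fold, at 2 weeks (limma, adjusted p = 5.10e-09) and by 1.52 ± 0.14, 2.87-fold, at 4 weeks (adjusted p = 3.62e-12). After 6 weeks of recovery the range was 63.5 to 88.5, median 83.2, within that of saline (0.17 ± 0.16, adjusted p = 0.547). After 10 weeks it was 39.7 to 70.4, median 57.7, with all 8 mice below the saline median and 3 below the lowest saline mouse (-0.38 ± 0.15, adjusted p = 0.115).

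Serpine2 was the one gene of the 8 called in all 4 groups against saline. The gene (ENSMUSG00000026249.8) lies at chr1:79794197-79861180 on the minus strand. Saline mice had 326.7 to 511.2 normalized counts of Serpine2, median 409.8. At 2 weeks of bleomycin the range was 827.7 to 1426, median 1143, and at 4 weeks 1333 to 1788, median 1645. At 6 weeks of recovery it was 737.3 to 1016, median 864.6, and at 10 weeks 536.1 to 912.8, median 754.0. No mouse of any of these groups was as low as the highest saline mouse.

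Serpine2 rose by 1.41 ± 0.10 on the log2 scale at 2 weeks of bleomycin, 2.66-fold (limma, adjusted p = 1.51e-15). At 4 weeks it rose by 1.94 ± 0.10, 3.84-fold (adjusted p = 6.89e-20). The rise against saline was 1.04 ± 0.11 at 6 weeks of recovery, 2.06-fold (adjusted p = 1.64e-08), and 0.82 ± 0.10 at 10 weeks, 1.76-fold (adjusted p = 1.90e-06). These calls were made under all 12 other settings and with each of the 44 mice left out.

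Counting genes whose mice did not overlap with saline mice gave 3 of 8 in each bleomycin group, all higher (Timp1, Plaur and Serpine2), where 3.44% of all genes were wholly higher at 2 weeks and 4.31% at 4 weeks. At 6 weeks of recovery there were 2, Serpine2 and Plat, beside 1.41%. At 10 weeks there was 1, Serpine2, beside 0.282%.

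Some macrophage and neutrophil markers were called higher in the bleomycin groups, in which Timp1, Plau and Plaur were higher. Of all genes 9.3% and 10.5% were called higher at 2 and 4 weeks. Of 5 macrophage markers 3 rose in each bleomycin group, and the summed level was 4007 to 10521 normalized counts in saline mice, 6678 to 24707 at 2 weeks, 7504 to 18279 at 4 weeks, 6208 to 7913 at 6 weeks of recovery and 4766 to 7362 at 10 weeks. Of 5 neutrophil markers 4 were in the table, and 4 rose at 2 weeks and 3 at 4 weeks, while 1 was lower than in saline in each recovery group. Their summed levels were 29.6 to 128.8 in saline mice, 83.3 to 3462 and 122.8 to 781.1 in the bleomycin groups, and 35.9 to 154.2 and 22.1 to 78.0 in recovery. Of 4 T cell markers 2 rose at 2 weeks. A neutrophil marker was at 0 in at least 1 mouse of the saline group and of each recovery group. Of 5 pericyte and smooth muscle markers 2 rose in each bleomycin group, 2 at 6 weeks of recovery and 1 at 10 weeks, and 1 fell at 2 weeks. They summed to 8099 to 16159 in saline mice, 15502 to 26673 and 14735 to 26150 in the bleomycin groups, and 16666 to 24907 and 13245 to 25109 in recovery, beside Serpine2. Of 4 Schwann cell markers, 1 rose with 2 weeks of bleomycin and 4 with 4 weeks, and 4 and 3 were higher after the shorter and the longer recovery, beside Serpine2. Their sums were 1402 to 3979 in saline mice, 2297 to 5391 and 3550 to 5837 in the bleomycin groups, and 3838 to 6597 and 3340 to 6225 in recovery. Of 5 blood endothelial markers 2 rose in each bleomycin group and 3 at 6 weeks of recovery, with sums of 1170 to 2348 in saline mice, 1401 to 3624 and 2204 to 2977 in the bleomycin groups, and 2444 to 3191 and 2077 to 2926 in recovery. No pericyte, Schwann cell or blood endothelial marker was at 0 in any mouse. The part of these markers in the results was not tested.

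The study design also allows the lengths of dosing and the recovery to be compared directly. From 2 to 4 weeks of bleomycin none of the 8 genes was called by limma, edgeR or DESeq2, where limma called 2.35% of all genes. An adjusted p below 0.05 without the fold threshold was reached by 4 of 8 genes, beside 5.61% of all genes. The groups overlapped for all 8 genes, beside 0.182% of all genes without overlap. These 4 were higher at 4 weeks: Plat by 0.55 ± 0.11 (adjusted p = 0.00182), Serpine2 by 0.53 ± 0.10 (adjusted p = 0.00104), Timp3 by 0.50 ± 0.14 (adjusted p = 0.0218) and Timp2 by 0.48 ± 0.14 (adjusted p = 0.0308). Leaving out mouse 3 or 10 of the 2-week group, or mouse 3 of the 4-week group, made Plat a call (0.59 each).

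In the mice at 6 weeks of recovery set against those at 4 weeks of bleomycin, 4 of 8 genes were called, 3 lower and 1 higher, beside 11.9% of all genes, 7.14% lower and 4.8% higher, and 7 of 8 reached an adjusted p below 0.05 beside 25% of all genes. Timp1 fell by 1.79 ± 0.26 on the log2 scale, 3.47-fold (limma, adjusted p = 9.65e-07). Plaur fell by 1.35 ± 0.16, 2.56-fold (adjusted p = 1.04e-08), and Serpine2 fell by 0.90 ± 0.11, 1.86-fold (adjusted p = 6.28e-08). For these 3 genes all recovery mice lay below all mice at 4 weeks of bleomycin. Timp4 rose by 1.01 ± 0.35, 2.02-fold (adjusted p = 0.0302), with overlapping groups. The call for Timp4 was lost when any of 5 mice was left out (4-week 1, 4 or 5, or recovery 2 or 5), where the log2 fold change was 0.83 to 0.94 and the adjusted p 0.0546 to 0.102.

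Among the other genes Timp2 differed by 0.55 ± 0.16 (adjusted p = 0.00944), Plat by 0.53 ± 0.13 (adjusted p = 0.00124) and Plau by -0.52 ± 0.11 (adjusted p = 0.000242), past the p threshold alone. Timp3 differed by 0.36 ± 0.16 (adjusted p = 0.0932). In this comparison 6 of 8 genes had groups that did not overlap. All recovery mice were higher for Timp2, Timp3 and Plat, beside 4.44% of all genes, and all were lower for Timp1, Plaur and Serpine2, beside 5.77%.

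Between 6 and 10 weeks of recovery none of the 8 genes was called by limma, edgeR or DESeq2, where limma called 0.088% of all genes. No gene of the 8 reached an adjusted p below 0.05, beside 0.0939% of all genes. Plaur differed by -0.55 ± 0.17 (adjusted p = 0.211), with 7 of 8 mice below the lowest mouse at 6 weeks. Timp1 was lower in all 8 mice at 10 weeks than in any at 6 weeks, 1 of 8 genes wholly lower beside 0.587% of all genes, with a log2 fold change of -0.52 ± 0.27 (adjusted p = 0.435). Serpine2 differed by -0.23 ± 0.12 (adjusted p = 0.436), with a 95% interval of -0.47 to 0.01.

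Within groups, the genes other than Timp4 varied together in a pair of blocks over all mice, with differing values in single groups. Group means were taken off log2(normalized count + 1), and all 28 pairs were compared over the 44 mice with 100000 permutations within groups. The values of a pair come from the same library and share its size factor. Timp1 went with Plau (r = 0.74, adjusted p = 0.000187, and Spearman's rho = 0.52, adjusted p = 0.00644) and with Plaur (r = 0.67, adjusted p = 0.000187, and rho = 0.52, adjusted p = 0.00644), both by permutation. Without the 2 mice farthest from the median the values of r were 0.52 and 0.51, and over the 42 mice without those that stood apart they were 0.60 and 0.58. Plau and Plaur had r = 0.55 (permutation adjusted p = 0.00767), and rho = 0.31 (adjusted p = 0.179). Their r was 0.32 without the 2 mice farthest in Plau and 0.44 over the 42 mice, so part of the relation rests on the mice left out. Within groups the r of Plau and Plaur was 0.22 in saline and 0.83 and 0.59 at 2 and 4 weeks of bleomycin. It was -0.33 and -0.01 at 6 and 10 weeks of recovery.

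Timp3 and Plat formed the strongest pair of the other block (r = 0.71, permutation adjusted p = 0.000187, and rho = 0.63, adjusted p = 0.00224), with r = 0.64 without the 2 mice farthest in Timp3. Timp2 went with Plat (r = 0.60, permutation adjusted p = 0.00210, and rho = 0.65, adjusted p = 0.00168) and with Timp3 (r = 0.57, adjusted p = 0.0124, and rho = 0.55, adjusted p = 0.00807). For these pairs r was 0.55 and 0.49 without the 2 mice farthest in Timp2. Serpine2 went with Timp3 (r = 0.51), Plat (r = 0.50) and Timp2 (r = 0.46), each past an adjusted p of 0.05 by permutation in r and rho. Single groups gave a range of values, whose differences were not tested. Timp3 and Plat had r = 0.99 in the 2-week group and 0.13 in the 4-week group, and Timp1 and Plau had 0.94 in the 2-week group and -0.34 at 6 weeks of recovery. Timp2 and Timp3 had 0.66 in the 2-week group and -0.06 in the 4-week group. Timp3 and Serpine2 had 0.84 in the 2-week group and -0.61 at 10 weeks of recovery. Timp4 reached no adjusted p below 0.05 with any other gene, its r lying between -0.18 and 0.25.

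**Figure D4:**
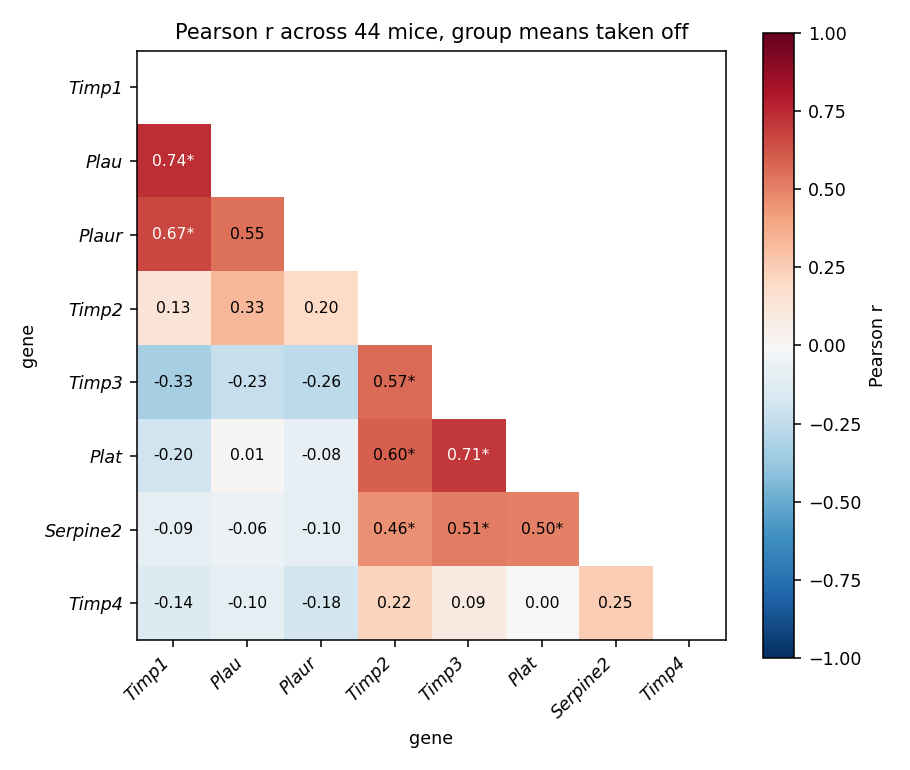
Pearson r of each pair of the 8 genes (both axes) over 44 mice, after group means were taken off log2(normalized count + 1). Stars mark pairs with an adjusted p below 0.05 by permutation in both r and rho. Timp1 pairs with Plau and Plaur, and Timp2, Timp3, Plat and Serpine2 pair with each other.

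The gene most like each of the 8 was looked for among 17029 other genes by the same within-group r over 44 mice, as a description. Timp1 was most like the chemokine Ccl8 (r = 0.88), Ifngr2 (0.87) and Rhoa (0.87). Timp2 was most like Coro2b (0.90), the procollagen processing enhancer Pcolce (0.90) and Mmp2 (0.89). For Timp3 these were Kirrel (0.86), Ehd3 (0.85) and the laminin chain Lamc1 (0.83), and for Plat Lamc1 (0.87), Nid1 (0.86) and Fbn1 (0.84). Timp4 was most like Sult1a1 (0.83), Serpina3c (0.79) and Ptgfr (0.75). Plau was most like Rab3il1 (0.84), Nrros (0.81) and Dok2 (0.81), and Plaur was most like Il4i1 (0.82), Irf5 (0.82) and Arrb2 (0.81). Serpine2 was most like the pericyte gene Rgs5 (0.76), Zeb1 (0.75) and Cdh2 (0.75). Spearman's rho was 0.74 to 0.75 for the genes like Serpine2 but 0.59 to 0.67 for those like Plau and 0.64 to 0.70 for those like Plaur, so the order of likeness depends on the measure.

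Of 14 other genes of the plasminogen system that were listed, 13 were in the table and 9 were tested, and 1 rose at 6 weeks of recovery and at 10 weeks. The median log2 fold changes of the 9 genes were 0.03 and -0.00 at 2 and 4 weeks of bleomycin and 0.12 and 0.01 at 6 and 10 weeks of recovery, where those of all genes tested lay between -0.002 and 0.003. The gene that rose was Vtn, which encodes the adhesive plasma protein vitronectin. Saline mice had 28.6 to 104.3 normalized counts of Vtn, median 71.9, mice at 6 weeks of recovery 109.0 to 194.8, median 132.6, and mice at 10 weeks 90.1 to 149.6, median 126.5. All mice at 6 weeks lay above all saline mice, and those at 10 weeks overlapped them. Vtn rose by 0.95 ± 0.21 on the log2 scale at 6 weeks (limma, adjusted p = 0.00317) and by 0.78 ± 0.20 at 10 weeks (adjusted p = 0.0115). Its log2 fold changes in the bleomycin groups were 0.38 ± 0.19 (adjusted p = 0.111) and 0.53 ± 0.19 (adjusted p = 0.0207), which were not called. Plg, which encodes plasminogen, was at 0 to 3.27 normalized counts and was not tested, and the plasminogen docking genes Anxa2 and S100a10 were the most abundant of the list per length.

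Among 25 tested proteases that TIMPs can inhibit, 4 rose and 2 fell at 2 weeks of bleomycin, where 9.3% of all genes were called higher and 7.43% lower. At 4 weeks 8 rose (10.5% of all genes higher), at 6 weeks of recovery 3 rose (3.33% higher), and at 10 weeks 1 fell (0.998% lower). Their median log2 fold changes were 0.02, 0.26, 0.27 and -0.01. The largest rises at 2 weeks were of the collagenases Mmp13 (2.16 ± 0.48) and Mmp8 (2.06 ± 0.32) and of Mmp10 (2.06 ± 0.38), and the falls were of Mmp11 (-0.90 ± 0.35) and Adamts5 (-0.75 ± 0.09). At 4 weeks Mmp8 (3.19 ± 0.32), Mmp10 (2.19 ± 0.38) and Mmp13 (2.02 ± 0.48) led again. Mmp8 is also one of the neutrophil markers. At 6 weeks of recovery the stromelysin Mmp3 (1.19 ± 0.17), the gelatinase Mmp2 (0.94 ± 0.17) and Mmp17 (0.79 ± 0.23) rose. Mmp27 fell at 10 weeks (-1.13 ± 0.21). Mmp2 and the membrane-bound Mmp14 were the most abundant of the list per length, with medians of 1391 and 414.2 normalized counts per kilobase.

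Of 16 tested genes listed as other protease inhibitors, 3 rose and 3 fell at 2 weeks of bleomycin, beside 9.3% and 7.43% of all genes. At 4 weeks 3 rose and 1 fell, beside 10.5% and 7.37%, and at 6 weeks of recovery 1 rose, beside 3.33%. The median log2 fold changes of the 16 were -0.02, 0.03, 0.12 and -0.02 in the 4 comparisons. Slpi, an inhibitor of neutrophil elastase, rose by 2.08 ± 0.30 and 2.63 ± 0.30 in the bleomycin groups, and the serpin Serpina3n rose by 1.29 ± 0.21 and 1.54 ± 0.21. Tfpi2, a Kunitz-type inhibitor, rose by 0.72 ± 0.23 and 1.32 ± 0.23 in the bleomycin groups and by 1.05 ± 0.27 at 6 weeks of recovery. Serpinf1, a serpin without protease inhibition that limits vessel growth, is counted in this list. It fell by 1.22 ± 0.17 at 2 weeks and, as the 1 gene that fell, by 0.65 ± 0.17 at 4 weeks. Reck, a membrane inhibitor of metalloproteinases, fell by 0.72 ± 0.17 and Spint1, an inhibitor of epithelial serine proteases, by 0.61 ± 0.15 at 2 weeks. The cystatins Cst3 and Cst6 were the most abundant of this list per length, with medians of 6585 and 4771 normalized counts per kilobase.

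**Figure D5:**
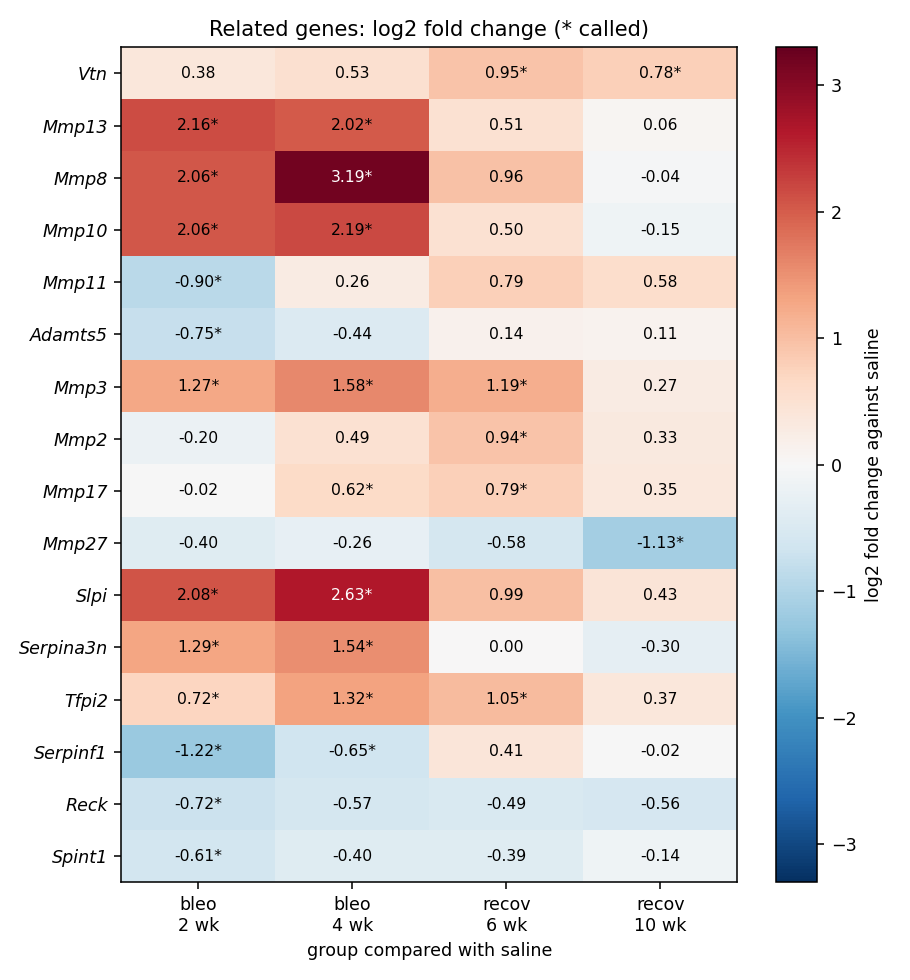
Log2 fold change against saline of related genes (rows) in the 4 other groups (columns), with called values starred. Mmp8, Mmp10 and Mmp13 are called in both bleomycin groups and in neither recovery group, and Vtn is called in both recovery groups (0.95 and 0.78).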

How the data were processed

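Per the labels and the study's methods, total RNA of back skin was made into TruSeq stranded mRNA libraries and sequenced as 50 bp paired-end reads on a HiSeq instrument, and the authors aligned them to mm10 with STAR 2.4.0. The authors divided each gene's count by a size factor per mouse with DESeq2 1.12.3 and deposited this signal as normalized counts. How reads were assigned to genes (tool, strand, annotation) is not given in the sources used here, so genes that overlap others (Timp1 with Syn1, Timp2 with Cep295nl, Timp3 with Syn3, Timp4 with Syn2 and Gm17482) are less certain.

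Of 43411 gene IDs, 42929 (98.9%) matched a symbol, and 14600 genes had no read. Dividing by the value of 1 read gave whole reads (within 0.01) for 100.0% of values in every mouse. limma 3.58.1 with a mean-variance trend (R 4.3.3) was fitted to log2(normalized count + 1) of genes with a mean above 3, over all 44 mice and 5 groups. The pseudocount understates the fold changes of low genes such as Timp4. edgeR 4.0.16 and DESeq2 1.42.0 were run on the recovered reads. In simulated data for 2 weeks of bleomycin against saline over 17037 genes, limma called 90% of 2-fold and 97% of 4-fold changes among 200 changed genes, and 9 unchanged genes. Changed genes were drawn from the better expressed genes, and the spread of the saline mice was used for all groups. The real 2-week mice spread more, with an SD over mean of 33.2% against 20.5% in saline for Timp2 and 102.3% against 23.3% for Timp1. These rates may therefore be too high for the real data. Gene positions and exon lengths are of GENCODE vM21 (GRCm38), with IDs matched without their versions, and promoters are of RefSeq. Tables, permutations and plots were made in Python 3.11.15 (scipy 1.17.1, pandas 2.3.3, numpy 2.4.6, matplotlib 3.10.9).

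All 8 genes are named in every comparison. From each related list the text names, against saline, up to 3 called genes that rose most and up to 3 that fell most, and the 2 highest per length. A gene of the related lists is not reported here. The genes and lists were chosen with earlier results of these data known. Alternatives were a pseudocount of 0.1, no filter, a filter of 10 normalized counts in 6 mice, a log2 threshold of 0.5, no fold threshold, quantile normalization, TMM factors, edgeR, DESeq2, fits of only 2 groups, a replicate block, 42 mice (without the 2 that stood apart) and each mouse left out. Histology was not analysed here.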

Additional observations from a re-analysis of the deposited data

Results flagged for a closer look

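In 5 of the 40 sets of a gene in a group, a mouse lay far from the others of its group by Dixon's test, which chance gives in about 1 in 20. Mouse 2 at 2 weeks of bleomycin was the highest of its group in Timp1, at 2429 normalized counts, and in Plau, at 1210. Its macrophage markers summed to 24707 and its neutrophil markers to 3462, each the highest of its group, and its fibroblast markers to 37580, the lowest. The part of these markers in its values was not tested. Saline mouse 1 had the lowest Timp4 of its group, 16.7. Mouse 3 at 10 weeks of recovery had the lowest Timp2 of its group, 4460. Mouse 1 at 6 weeks of recovery had the lowest Plaur of its group, 63.5.

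The difference from saline itself differed between 4 weeks of bleomycin and 6 weeks of recovery for 4 genes, by the direct comparison in limma. The differences in log2 fold change were -1.79 for Timp1, -1.35 for Plaur, -0.90 for Serpine2 and 1.01 for Timp4.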

How the results depend on the processing

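Of 672 log2 fold changes of the 8 genes under 12 other settings, 641 kept their direction and their side of the threshold, as did 2425 of 2464 with each of the 44 mice left out. Many of these values could not move. Leaving out a mouse of neither group compared does not alter the log2 fold change. Settings that alter only the fold threshold cannot alter the direction. At 6 weeks of recovery against saline the count of genes called went from 1 to 2 with no fold threshold (Plat added), beside 1547 of all 17037 genes. Over 42 mice it went to 2 (Timp1 added), beside 778 of 17043. At 10 weeks the count went to 2 with no fold threshold (Plat), beside 994 of 17037. From 2 to 4 weeks of bleomycin it went from 0 to 3 at a log2 threshold of 0.5, beside 509 of 17037. With no fold threshold it went to 4, beside 956 of 17037, and it was 0 to 1 with each mouse left out. Between the 4-week bleomycin and 6-week recovery groups it went from 4 to 7 at a log2 threshold of 0.5 and with no fold threshold, which follows from the lower threshold itself. Of all 17037 genes, 2328 and 4260 were called there under these 2 settings. Values near 0 that were never called changed sign. Over 42 mice Timp4 at 6 weeks of recovery was -0.07 and Timp2 at 10 weeks -0.05, and Timp4 at 10 weeks was 0.04 with the replicate block, 0.06 by edgeR and 0.06 by DESeq2. With each mouse left out, Timp4 at 6 weeks of recovery ran from -0.07 to 0.27, Timp1 at 10 weeks from -0.03 to 0.15, Timp2 at 10 weeks from -0.05 to 0.10, Timp4 at 10 weeks from -0.24 to 0.12 and Timp4 between the recovery groups from -0.33 to 0.02. Timp3 at 2 weeks of bleomycin became a call without any of 8 mice (-0.59 to -0.63). The causes were not tested.

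Same-numbered mice of different groups are different animals, and the numbers did not pair them: 78 same-number pairs had a median correlation of deviations of -0.002 and a lowest of -0.691, 18 were above 0.1, and 4 of 44 mice correlated best with their own number. With the replicate block, Timp2 (0.65) and Plat (0.60) also became calls between the 4-week bleomycin and 6-week recovery groups. This made 6 of 8 genes in place of 4, beside 2096 of all 17037 genes in place of 2035. Depth limits Timp4, with as few as 14 reads in a mouse.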
